A study of Mus musculus with 12 samples.

Results

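dTAG-13 was added for the last 3 h to cells that had been induced with doxycycline, and RNA from 3 such libraries was compared with RNA from 3 libraries of cells with doxycycline alone, 6 of the 12 libraries in the series. All genes were compared, and 12910 passed the filter on low counts. The cells were MC38-idAdpgkG, made from MC38, a colon carcinoma line of C57BL/6 mice, and stably transfected with an inducible, degradable fusion of turboGFP with Adpgk that carries the protein change R304M. Mouse interferon-gamma (mIFNg) at 20 ng/mL was present in every group, so no comparison here shows cells without it. For 51 h the doxycycline cells had mIFNg together with doxycycline at 1 µg/mL, and the doxycycline plus dTAG-13 cells had both for 48 h before 1 µM dTAG-13 was added. Control cells had mIFNg alone for 51 h, and the dTAG-13 group had mIFNg for 48 h and then dTAG-13 for 3 h without doxycycline. Per the series' design text, each group was 1 biological sample measured in technical triplicate, so errors and p-values measure the spread between libraries and a called difference is one between 2 cultures. The sources used here do not name the inducible promoter or say whether the line is 1 clone.

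dTAG-13 is a small molecule with one end that binds a mutated FKBP12 tag and another that binds cereblon, the substrate receptor of a CUL4 ubiquitin ligase. A tagged protein that is brought to the ligase in this way is ubiquitinated and broken down by the proteasome, so the target is removed at the protein level and its transcript is not the point of attack. Neoantigens such as the mutated Adpgk, an ADP-dependent glucokinase, are cut by the proteasome into peptides that MHC class I molecules display, and interferon-gamma induces much of that machinery. Among transcripts, those of immediate early genes respond within minutes to hours of a stimulus without new protein synthesis.

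In the cells with dTAG-13, transcripts of immediate early genes were among the most increased, with Ccn1 at 3.11-fold, Dusp1 at 2.297-fold, Egr1 at 2.18-fold and Klf6 at 2.13-fold the level with doxycycline alone. Nos2, the inducible nitric oxide synthase, was 2.59-fold lower, and Hmox1, the inducible heme oxygenase, was 1.75-fold lower. Across the whole transcriptome the direction went with transcript length. Short transcripts such as those of ribosomal proteins and the respiratory chain were higher, and long ones such as Dync1h1, Polr2a and Fn1 were lower.

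Of the 12910 genes tested, 8273 (64.1%) were called at an adjusted p under 0.05, 3957 (30.7%) higher and 4316 (33.4%) lower with dTAG-13. Most of the called differences were small, with a median absolute log2 fold change of 0.334 and 77.0% of called genes under 0.5. In all, 188 genes (1.46%) changed 2-fold or more, 166 of them (1.29%) upward and 22 (0.17%) downward. The 166 held 60 of 11627 tested protein-coding genes, 31 of 51 snoRNA genes and 26 of 437 lncRNA genes. They also held 27 of 374 tested genes without a RefSeq entry. The median level of the 166 was 0.559 CPM (normalised read counts scaled to a common library size) against 31.1 CPM over all genes tested. At a mean of at least 5 CPM, 14 genes were 2-fold higher and 5 were 2-fold lower. Library totals were 29240639 to 31055193 counts with doxycycline and 22165538 to 31257320 counts with dTAG-13 added, and replicates of a group differed by more than sampling noise.

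The induced transcript and the degrader's partners were looked at first. Adpgk (Entrez 72141, chr9:59291572-59316200, mm10) stood at 1343, 1316 and 1355 CPM with doxycycline and at 1378, 1351 and 1379 CPM with dTAG-13 added, against 161 ± 2.49 CPM in control (SD, n = 3), so both induced groups carried the induced transcript that their labels name. The 2 induced groups overlapped, and the log2 fold change was 0.03 (SE 0.0200, adjusted p = 0.140). Reads of the transgene and of the endogenous gene share this 1 entry. Fkbp1a, which encodes the FKBP12 protein from which the tag is derived, was not called at 0.01 (adjusted p = 0.699), but it was called lower once length and GC content were corrected for (-0.13, adjusted p = 1.28e-06). Crbn, which encodes cereblon, stood at 21.98, 19.8 and 21.1 CPM with doxycycline and at 28.9, 28.3 and 25.8 CPM with dTAG-13 (log2 fold change 0.39, SE 0.0577; adjusted p = 1.33e-07). With length and GC content corrected for, Crbn was at 0.14 (adjusted p = 0.0379). It was also higher with dTAG-13 in cells without doxycycline (0.27, adjusted p = 5.84e-05). The Crbn locus overlaps Trnt1, and as the strand setting of the counting is not given, reads from the overlap cannot be assigned to one of them. Of 18 tested genes for the degrader machinery (ligase subunits, neddylation enzymes and neosubstrates), 8 were higher and 6 lower. Over all genes tested 30.7% were called higher and 33.4% lower. Higher members of the list included Rbx1, the RING subunit of the ligase, at 0.42, while the neosubstrate Zfp91 was lower at -0.38. Genes in the same class of transcript length as Zfp91 also had a median of -0.38, and without doxycycline Zfp91 was at -0.34. The neosubstrates Csnk1a1 (0.01) and Gspt1 (0.02) were not called. After the same correction Rbx1 was no longer called (0.06, adjusted p = 0.180). Zfp91 was then at -0.06 (adjusted p = 0.0343), with Csnk1a1 called lower (-0.06) and Gspt1 higher (0.06).

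The cells were checked against marker genes of their labelled origin and of other cell types. None of 15 intestinal epithelial markers passed the filter, and 6 of them (Alpi, Cdx2, Cldn3, Epcam, Fabp1 and Muc2) had no read in any library. Their summed level was 0.298 to 0.869 CPM with doxycycline and 0.406 to 0.594 CPM with dTAG-13 added. Mesenchymal markers summed to 3070 to 3096 CPM and 2592 to 2635 CPM, with 9 of 14 tested, 1 higher and 6 lower. Leukocyte markers summed to 1.85 to 1.98 CPM and 2.80 to 3.23 CPM, with 2 of 15 tested, and Cd3d, Cd3e, Cd8a, Ms4a1 and Nkg7 had no read. Endothelial markers summed to 7.08 to 7.12 CPM and 7.68 to 7.96 CPM, with 3 of 8 tested. In bulk RNA, fewer cells of a type and less RNA per cell cannot be told apart, and the part of these markers in the results was not tested.

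Transcript length followed the direction of the differences closely. The 11745 tested genes with a GENCODE transcript were ordered by mean transcript length and split into eighths. The shortest eighth (71 to 1254 bases) had a median log2 fold change of 0.37, with 69.0% of its genes called higher and 3.27% called lower. The median then fell with each step, through 0.19, 0.09, 0.00, -0.08, -0.15 and -0.25, and reached -0.38 in the longest eighth (5229 bases and above), where 4.90% were called higher and 74.5% lower. Across genes, Spearman's rank correlation of the log2 fold change with transcript length was -0.60. It was -0.57 with coding length, -0.33 with untranslated length, -0.44 with genomic span, -0.41 with exon number, -0.16 with GC content and -0.18 with mean CPM. These are descriptions over genes of the same 6 libraries, and genes are not replicates.

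**Figure D1:**
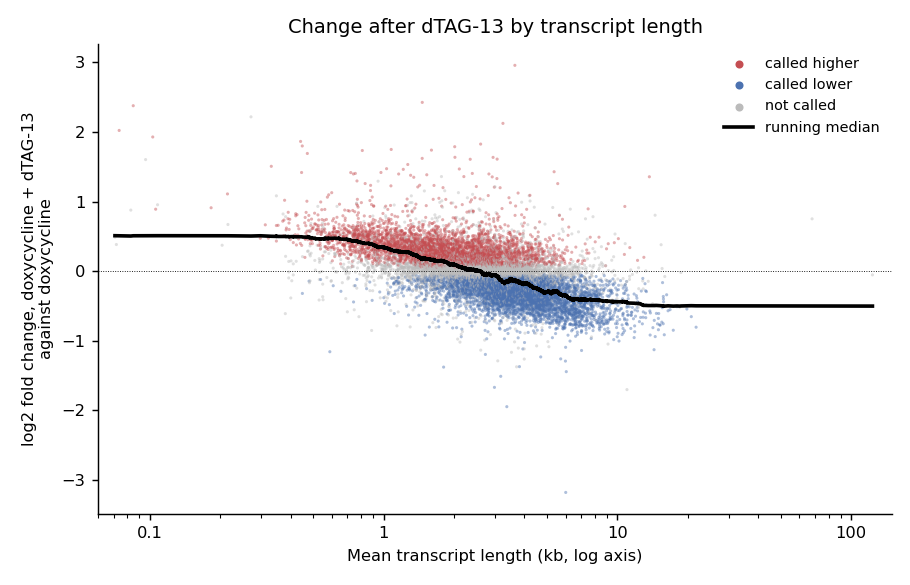
The log2 fold change of each tested gene (doxycycline plus dTAG-13 against doxycycline, y axis) is plotted against its mean transcript length in kilobases on a log axis. Red points were called higher, blue points lower and grey points not called, and the black line, a running median, descends from about the level of the shortest eighth (median 0.37) to that of the longest (median -0.38).

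Genomic span and transcript length are related, so each was also followed with the other held in a narrow range. Genes were split into 4 equal classes by span and by transcript length. In the class with the shortest span, the median log2 fold change went from 0.42 in the shortest transcripts to -0.05 in the longest. In the class with the longest span it went from 0.03 to -0.46. Span had a smaller gradient at a given length. In the class with the shortest transcripts, the median was 0.34 at the shortest spans and 0.24 at the longest, and in the class with the longest it was -0.18 and -0.44.

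The same pattern was measured in each library as the median deviation of the longest eighth minus that of the shortest eighth, in log2 CPM around the mean of all libraries. The doxycycline libraries stood at 0.396, 0.341 and 0.328, and the libraries with dTAG-13 added stood at -0.408, -0.340 and -0.403. No library of one group reached the range of the other, and the difference was -0.739 against a pooled SD of 0.0368. An exact two-sided permutation test gave p = 0.1, the smallest that 3 against 3 libraries allow. The 2 groups without doxycycline were split in the same direction, with 0.246, 0.280 and 0.312 in control and -0.302, -0.221 and -0.249 with dTAG-13. Each group was 1 culture, so the treatment and the culture cannot be told apart.

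**Figure D2:**
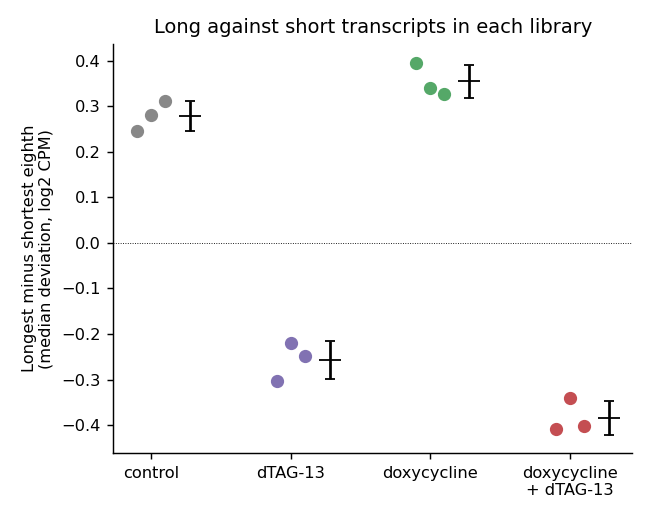
Each point is 1 library of the group named on the x axis, and the y axis gives the median deviation of the longest eighth of transcripts minus that of the shortest eighth (log2 CPM), with the group mean and SD as bars. All 6 libraries without dTAG-13 lie above 0, at 0.246 to 0.396, and all 6 with it lie below 0, at -0.408 to -0.221.

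Some library measures moved together with the comparison. Mitochondrial rRNA took 0.149% to 0.164% of counts with doxycycline and 0.262% to 0.276% with dTAG-13 added, while control libraries held 0.140% to 0.154% and libraries with dTAG-13 alone 0.125% to 0.129%. One gene ID without a symbol took 0.533% to 0.966% of counts with doxycycline and 0.997% to 1.83% with dTAG-13 added. The part of these shares in single gene differences was not tested. A correction that removed a smooth trend of length and GC content from each library left 6653 called genes (51.5%), 3264 (25.3%) higher and 3389 (26.3%) lower. Of the 5590 genes called both with and without it, 5164 had the same direction and the rest the opposite one.

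Gene lists were therefore read beside the median of all tested genes (0.003) and beside the median for genes of the same length eighths. The lists with the highest medians were made of short transcripts. Of 82 tested cytosolic ribosomal protein genes, 76 were higher and 0 lower, with a median of 0.53 against 0.37 for their length eighths. After the length and GC correction 34 were called higher and 4 lower, with a median of 0.16. Rps27, a small subunit protein gene on chr3, stood at 13.8, 16.5 and 13.5 CPM with doxycycline and at 30.4, 26.8 and 31.4 CPM with dTAG-13 added, so that its log2 fold change was 1.02 with SE 0.158 and adjusted p = 0.000375. Rpl22l1, a paralog of the large subunit gene Rpl22, was at 0.99, and its call was lost after the length and GC correction (0.27, adjusted p = 0.0943). Many of these genes have near-identical pseudogene copies, and how reads with several matches were counted is not given, so single values of this family are uncertain.

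Of 77 nuclear genes of the respiratory chain and ATP synthase, 70 were higher and 2 lower, with a median of 0.45 against 0.37, and after the correction 34 were called higher and 8 lower, with a median of 0.07. Cox7c, a cytochrome c oxidase subunit, stood at 16.7, 18.2 and 22.1 CPM with doxycycline and at 34.8, 35.6 and 34.9 CPM with dTAG-13. Its log2 fold change of 0.89 (adjusted p = 0.000236) became 0.27 (adjusted p = 0.0639) after the correction. Mitochondrial ribosomal protein genes were higher in 68 of 76 and lower in 1, with a median of 0.34 where the length eighths gave 0.37, and after the correction 41 were called higher and 7 lower. The largest change there was in Mrpl33, at 0.73.

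Genes encoded by the mitochondrial genome were higher in 12 of 13, with a median of 0.47. mt-Nd5, a complex I subunit, stood at 1431, 1414 and 1352 CPM with doxycycline and at 2056, 2153 and 2034 CPM with dTAG-13 added, a log2 fold change of 0.57 (adjusted p = 5.57e-06). In cells without doxycycline, where dTAG-13 against control called 8021 genes (62.1%), 3877 (30%) higher and 4144 (32.1%) lower, 1 of the 13 was higher and 7 were lower, with a median of -0.22. After the length and GC correction the list's median in the induced cells was -0.15, with 1 member called higher and 7 lower. The direction for this family therefore depends on that correction. mt-Nd6 overlaps the end of mt-Nd5 on the other strand, and reads from the overlap cannot be assigned to one of them without the strand. After the correction mt-Nd5 was at 0.17 and mt-Nd6 was called lower at -0.26 (adjusted p = 0.0387).

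Proteasome genes, whose products carry out the degradation that dTAG-13 directs, were higher in 28 of 31 and lower in 3, with a median of 0.31 against 0.19 for their length eighths. Psma3, a ring subunit of the core particle, stood at 40.7, 37.1 and 43.6 CPM with doxycycline and at 66.7, 62.2 and 62.6 CPM with dTAG-13. Its log2 fold change was 0.66 (adjusted p = 1.44e-10), and that of Psma6 was 0.56. The 3 lower members were Psmd3 (-0.38), Psmd2 (-0.11) and Psmd11 (-0.11), all of the regulatory particle, and Psmd2 was not called after the correction. After the correction the list's median was 0.08, with 17 called higher and 5 lower.

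snoRNA host genes, which carry small nucleolar RNAs in their introns, had the highest median of all lists, at 0.69. Of 19 tested, 17 were higher and 0 lower. Snhg16 stood at 14.0, 13.6 and 14.2 CPM with doxycycline and at 34.2, 30.6 and 33.3 CPM with dTAG-13 (log2 fold change 1.23, SE 0.0612; adjusted p = 1.10e-20). Snhg1 stood at 118, 120.3 and 122 CPM and at 249, 235 and 239 CPM, so that its log2 fold change was 1.00 with SE 0.0306 and adjusted p = 3.68e-26. Neither gene's groups overlapped, as was so for 67.2% of all genes tested, and the rule for the largest changes took only such genes. The 9 host genes with a known transcript length all lay above the median of their eighth, and 7 of the 9 were still called higher after the correction, which leaves the other 10 as they were because no length is known for them. Without doxycycline, 16 of 19 were higher, with a median of 0.60.

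Other long non-coding RNAs led the increases. Dnm3os, on chr1:162217623-162225550 inside Dnm3, stood at 4.11, 4.601 and 4.11 CPM with doxycycline and at 14.2, 12.4 and 16.3 CPM with dTAG-13 (log2 fold change 1.75, SE 0.103; adjusted p = 2.87e-18). Mir17hg, the host transcript of the miR-17 cluster, stood at 2.98, 2.57 and 2.76 CPM and at 9.76, 7.94 and 8.46 CPM, a log2 fold change of 1.65 (adjusted p = 1.25e-14). Mir22hg was at 1.13. These 3 transcripts hold or overlap miRNA genes, and reads of Dnm3os cannot be separated here from those of Dnm3. The pseudogenes Gm4705 (1.198) and Gm5093 (1.01) were also among the 12 largest increases, but Gm5093 was no longer called without doxycycline replicate 1 (0.86, adjusted p = 0.0570).

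Replication-dependent histone genes were higher in 20 of 57 and lower in 1, where 30.7% and 33.4% of all genes tested were so called. Their median of 0.37 was the same as for their length eighths. After the length and GC correction 4 were called higher and 6 lower, with a median of 0.02. The largest changes, H1f5 at 1.40 and H2bc6 at 1.22, rested on few reads. H1f5 had 11, 5 and 16 reads with doxycycline and 23, 19 and 33 with dTAG-13. Histone genes are near-identical copies with mostly non-polyadenylated transcripts, and the libraries were selected for poly(A) RNA.

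Long transcripts made up the lower side. A list of giant proteins held dynein heavy chains, kinesins, filamins, spectrins and other cytoskeletal proteins together with ubiquitin ligases such as Ubr4 and Huwe1 and the VPS13 lipid transfer proteins. Of its 36 tested genes, 35 were lower and 0 higher, with a median of -0.62 against -0.38 for their length eighths. The longest eighth has no upper limit and a median length of 6595.5 bases, while the list's median length was 11094 bases. The value of -0.38 is therefore not matched to the length of this list. Dync1h1, the heavy chain of cytoplasmic dynein (chr12:110601395-110666944), stood at 437, 439 and 434 CPM with doxycycline and at 199, 211 and 189 CPM with dTAG-13 added. Its log2 fold change was -1.13 (SE 0.0267, adjusted p = 3.07e-30). In the cells without doxycycline it was -1.55, and the difference between the 2 was called (0.42, SE 0.0375, adjusted p = 2.78e-11). Ubr4, a giant ubiquitin ligase, was at -0.91. After the length and GC correction 27 of the 36 were called lower and 6 higher, with a median of -0.20.

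The other large decreases were in long transcripts of several functions. Polr2a, the largest subunit of RNA polymerase II, stood at 267, 253 and 258 CPM with doxycycline and at 132, 129 and 127 CPM with dTAG-13, so that its log2 fold change was -1.01 with SE 0.0272 and adjusted p = 3.32e-29. Prrc2c stood at 446, 445 and 446 CPM and at 219.6, 232 and 214 CPM, which was 2.01-fold lower. On the log2 scale Prrc2b (-0.98), the chromatin remodelling subunit Bptf (-0.96), the atypical cadherin Fat1 (-0.94), the lipoprotein receptor Lrp1 (-0.94), the RNA-binding protein Zc3h13 (-0.92) and the Argonaute Ago2 (-0.92) followed. Gm4972, with no transcript length in the annotation, was at -1.18, and Zbtb20, at -0.97, overlaps several other genes.

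Extracellular matrix and integrin genes were lower in 18 of 21 and higher in 1, with a median of -0.47 against -0.38, and after the correction 11 were called lower and 1 higher. Fn1, fibronectin, stood at 736, 714 and 704 CPM with doxycycline and at 394, 400.2 and 389.8 CPM with dTAG-13 (log2 fold change -0.86, SE 0.0221; adjusted p = 5.64e-30). Col12a1 was also at -0.86, and its call was lost after the correction (-0.39, adjusted p = 0.0633). The single increase was in Sparc, at 0.15, and its call too was lost (0.05, adjusted p = 0.0992). Of 23 genes regulated by YAP and TEAD, 16 were lower and 4 higher, with a median of -0.33 against -0.15. The transcription factor Tead1 was at -0.82. Ccn1, which belongs to this list and to the immediate early list, was the exception in size at 1.64. SRF and MRTF cytoskeletal targets were lower in 9 of 17 and higher in 5, with a median of -0.13 against 0.09. The non-muscle myosin heavy chain Myh9 (-0.76) and vinculin, Vcl (-0.59), had the largest changes there. Shares over all genes tested, to set beside each list in this paragraph, were 33.4% called lower and 30.7% higher. With dTAG-13 in cells without doxycycline, the SRF and MRTF list had 11 lower and 4 higher (median -0.33). The YAP and TEAD list there had 16 lower and 4 higher (median -0.43), and the matrix and integrin list 16 lower and 1 higher (median -0.27).

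**Figure D3:**
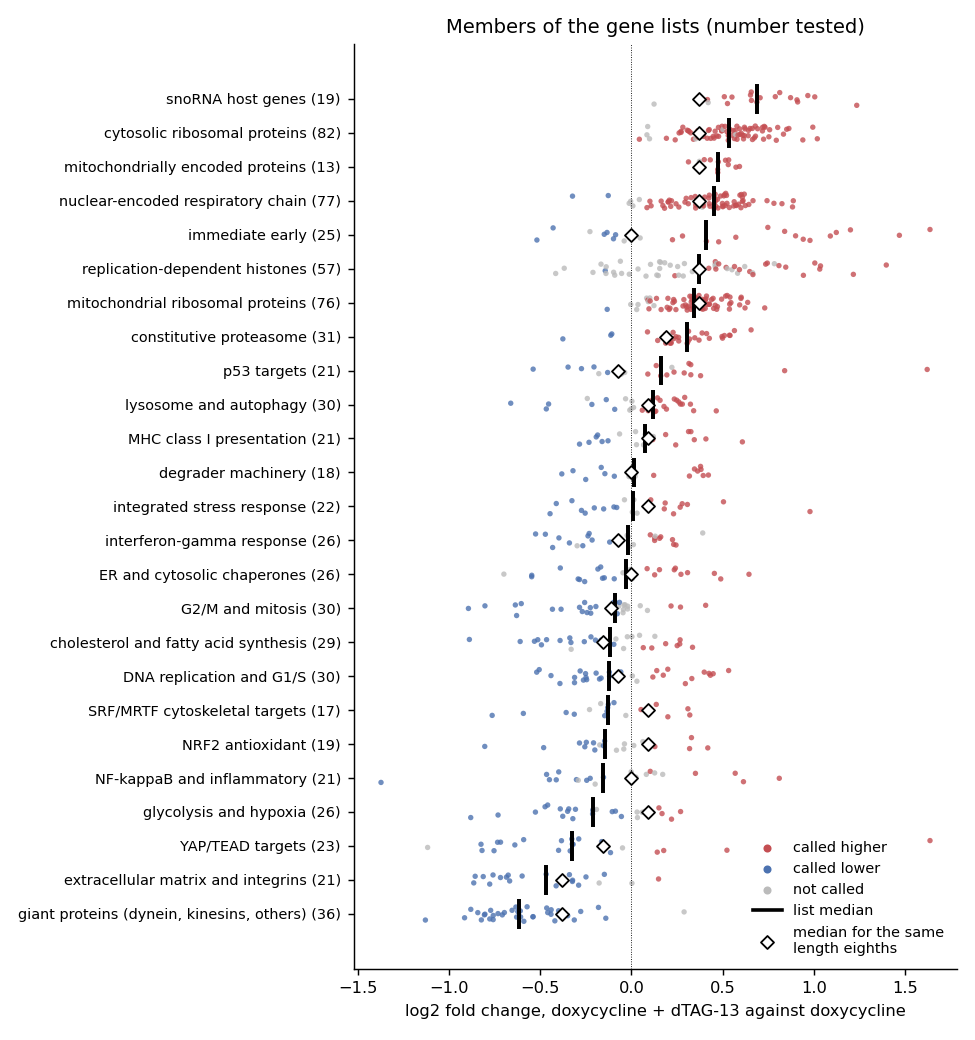
Each point is a tested member of the list named at the left, placed by its log2 fold change (doxycycline plus dTAG-13 against doxycycline, x axis), in red if called higher, blue if called lower and grey if not called. The bar is the list's median and the diamond the median for genes of the same length eighths. Lists of short transcripts lie to the right, the giant protein and matrix lists to the left, and the immediate early list (bar at 0.41, diamond at 0.00) has its bar far from its diamond.

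Immediate early genes as a list lay above genes of the same length. Of 25 tested, 15 were higher and 6 lower, with a median of 0.41, while genes of the same length eighths had a median of 0.00. After the length and GC correction 17 were called higher and 5 lower, with a median of 0.55. Ccn1 (Entrez 16007, chr3:145646971-145649985), a secreted matricellular protein, stood at 109, 104 and 106 CPM with doxycycline and at 327, 342 and 319 CPM with dTAG-13 added. Its log2 fold change of 1.64 (SE 0.0286, adjusted p = 1.93e-35) was the largest among the protein-coding genes that the rule for named genes took by size. Egr1, a zinc finger transcription factor, stood at 107, 111 and 109 CPM and at 238, 245 and 230.1 CPM, so that its log2 fold change was 1.12 with SE 0.0286 and adjusted p = 5.64e-30. Klf6, a Krüppel-like factor, stood at 196, 188 and 188 CPM and at 407, 405 and 403 CPM (log2 fold change 1.09, SE 0.0231; adjusted p = 1.47e-32).

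Other members of the list were expressed at lower levels but changed by similar factors. Dusp1, a phosphatase that inactivates MAP kinases, stood at 4.08, 3.73 and 4.56 CPM with doxycycline and at 11.1, 8.41 and 9.10 CPM with dTAG-13, so that its log2 fold change was 1.1999 with SE 0.114 and adjusted p = 3.51e-12. Fos, a subunit of the AP-1 transcription factor, had 26, 31 and 28 reads with doxycycline and 61, 63 and 84 reads with dTAG-13 (log2 fold change 1.47, SE 0.208; adjusted p = 6.64e-08). The stress-responsive factor Atf3 stood at 2.75, 2.43 and 2.35 CPM and at 4.46, 5.50 and 4.88 CPM, a log2 fold change of 0.98. Smaller increases were called in Ier2 (0.94), Fosb (0.90), Btg2 (0.84), Egr2 (0.75), Klf2 (0.57), Nr4a1 (0.48), Ier5 (0.41), Jun (0.28) and Junb (0.22). The 6 lower members were Fosl2 (-0.52), Fosl1 (-0.43), Ier3 (-0.15), Srf (-0.13, not called after the correction), Klf10 (-0.10) and Myc (-0.09).

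Promoter sequence of the immediate early genes was searched for the core of the cAMP response element, TGACGT or its complement ACGTCA, which was chosen after promoters of some members had been read. Among RefSeq promoters (GRCm38.p6, the same assembly as mm10, 250 bases before the start site), it was present on either strand in 6 of the 19 immediate early genes with an entry. All 6 were among the 13 called higher with an entry, and the share over all 9754 tested genes with an entry was 11.9%. Serum response elements, searched as the CArG box by name, were present in 3 of the 19 (15.8%) against 1.40% of all tested genes, and in 1 of the 13. A match describes the sequence and shows neither binding nor a cause. The promoters of 4 of the 6 are shown 5′ to 3′ on the strand of the gene, with the element in capitals. These 4 genes were called higher in the induced cells but did not share a direction without doxycycline. There Atf3 was called higher (0.52), Ccn1 (-0.32) and Fos (-0.48) were called lower, and Dusp1 (-0.01) was not called. They lie at chr3:145649986-145650235 on the minus strand (Ccn1), chr12:85473640-85473889 on the plus strand (Fos), chr17:26508473-26508722 on the minus strand (Dusp1) and chr1:191183334-191183583 on the minus strand (Atf3).
Ccn1: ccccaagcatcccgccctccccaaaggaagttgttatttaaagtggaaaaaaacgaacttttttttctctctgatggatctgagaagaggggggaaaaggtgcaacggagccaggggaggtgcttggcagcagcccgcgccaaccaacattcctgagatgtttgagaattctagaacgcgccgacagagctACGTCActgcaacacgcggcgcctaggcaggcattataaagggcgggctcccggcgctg
Fos: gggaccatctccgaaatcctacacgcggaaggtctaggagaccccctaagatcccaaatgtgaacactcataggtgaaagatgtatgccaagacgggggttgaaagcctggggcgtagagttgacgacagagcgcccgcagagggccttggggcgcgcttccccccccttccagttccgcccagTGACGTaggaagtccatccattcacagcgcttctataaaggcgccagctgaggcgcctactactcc
Dusp1: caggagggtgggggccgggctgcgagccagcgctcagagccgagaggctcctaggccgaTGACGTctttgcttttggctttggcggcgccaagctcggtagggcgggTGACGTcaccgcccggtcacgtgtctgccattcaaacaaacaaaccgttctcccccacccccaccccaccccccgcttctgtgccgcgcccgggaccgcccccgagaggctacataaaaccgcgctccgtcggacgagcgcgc
Atf3: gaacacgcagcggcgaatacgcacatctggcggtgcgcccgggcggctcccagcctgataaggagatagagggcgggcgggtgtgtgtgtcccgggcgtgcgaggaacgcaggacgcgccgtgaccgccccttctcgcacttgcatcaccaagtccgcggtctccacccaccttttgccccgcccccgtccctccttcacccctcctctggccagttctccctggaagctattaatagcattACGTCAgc
The Dusp1 promoter holds 2 copies of the element and the other 3 promoters hold 1 each.

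The increase of immediate early genes differed between cells with and without doxycycline. The difference of the dTAG-13 differences (the interaction, which shares the doxycycline libraries with the main comparison) was called for 2950 of 12910 genes (22.9%), positive for 1705 (13.2%) and negative for 1245 (9.64%). Of the 25 immediate early genes, 17 were positive and 3 negative. In cells without doxycycline, dTAG-13 gave 3 higher and 10 lower members and a median of -0.15. Ccn1 stood at 288 ± 4.55 CPM in control and 230.2 ± 7.84 CPM with dTAG-13 alone (SD, n = 3), a log2 fold change of -0.32, and its interaction was 1.96 (SE 0.0393, adjusted p = 4.10e-33). Egr1 stood at 279 ± 10.4 and 188 ± 1.57 CPM, with an interaction of 1.69 (SE 0.0394, adjusted p = 6.51e-31). For Ccn1, Egr1, Klf6, Fos and Dusp1 the doxycycline libraries were the lowest of all 12, and the interaction uses that level.

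**Figure D4:**
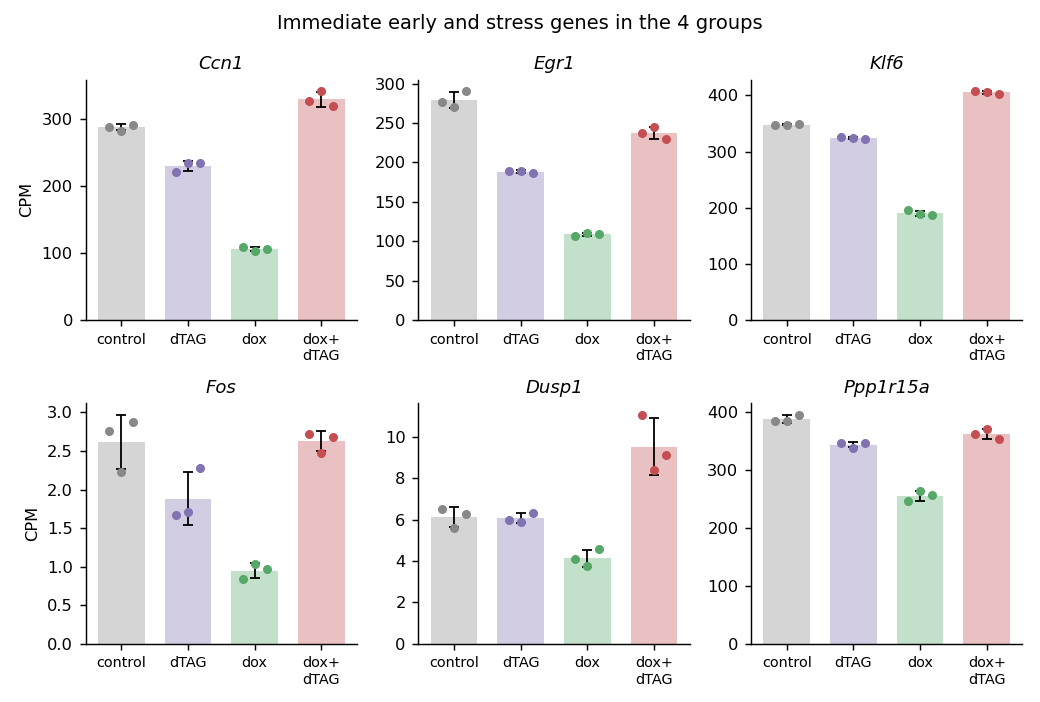
Bars show the mean CPM of 3 libraries per group with the SD, and points show single libraries, for Ccn1, Egr1, Klf6, Fos, Dusp1 and Ppp1r15a. In each panel the doxycycline libraries are the lowest of the 4 groups and the doxycycline plus dTAG-13 libraries lie above them, for Ccn1 at 319 to 342 against 104 to 109 CPM.

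Nos2 had the largest decrease among named genes. Nos2 (Entrez 18126, chr11:78920787-78960226), which interferon-gamma and NF-kappaB induce in many cells, stood at 19.3, 22.2 and 21.3 CPM with doxycycline and at 7.58, 8.61 and 8.01 CPM with dTAG-13 added. Its log2 fold change was -1.37 (SE 0.0880, adjusted p = 3.69e-17), and -1.13 after the length and GC correction. Control stood at 6.82 ± 0.975 CPM and dTAG-13 alone at 6.07 ± 0.592 CPM (SD, n = 3), and that difference was not called (-0.17, adjusted p = 0.169). The doxycycline libraries were the highest of all 12. The interaction was -1.21 (SE 0.138, adjusted p = 1.20e-08). Among 21 NF-kappaB and inflammatory genes, 9 were lower and 5 higher, where 33.4% and 30.7% of all genes tested were so called. After the length and GC correction 9 were called lower and 2 higher, with a median of -0.06. Before it the median was -0.15 against 0.00 for their length eighths. The subunits Nfkb1 (-0.47), Nfkb2 (-0.45) and Rela (-0.40) were lower. Unlike Nos2, these subunits were also called lower without doxycycline (-0.42, -0.46 and -0.40), and none of their interactions was called. With length and GC content corrected for, they were still called lower, at -0.28, -0.22 and -0.24. Nfkbiz, an atypical inhibitor family member, was higher at 0.81 (15.7, 14.5 and 15.5 CPM against 25.8, 27.2 and 27.2 CPM). The chemokines Ccl7 (0.61), Cxcl1 (0.57) and Ccl2 (0.35) were higher. After the correction Ccl7 (0.08, adjusted p = 0.625) and Cxcl1 (0.14, adjusted p = 0.248) were not called, and Ccl2 was called lower at -0.17.

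Antioxidant genes regulated by NRF2 were lower in 9 of 19 and higher in 4, where 33.4% and 30.7% of all genes tested were so called. Their median was -0.15 against 0.09 for their length eighths. Hmox1 (Entrez 15368, chr8:75093618-75100593) stood at 419.9, 429 and 413 CPM with doxycycline and at 238, 249 and 235 CPM with dTAG-13 added. Its log2 fold change was -0.80 (SE 0.0276, adjusted p = 5.83e-24), while the length eighth to which it belongs had a median of 0.19. In cells without doxycycline the groups stood at 295 ± 14.6 and 293 ± 2.24 CPM (SD, n = 3), and the interaction was -0.79 (SE 0.0389, adjusted p = 4.95e-18). The glutathione transferase Gstm1 was lower at -0.48 and had an interaction of -0.93. By the distance from the running median for their length, the most negative values after Nos2 and Hmox1 were those of Selenbp1 (log2 fold change -0.72), Larp1b (-0.69), Mt2, a metallothionein (-0.32), and Nfix (-0.85). On the positive side Ccn1, Klf6, Egr1, Dusp1 and Snhg16 were joined by Dnajc15 (0.63), a mitochondrial co-chaperone with a long transcript.

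**Figure D5:**
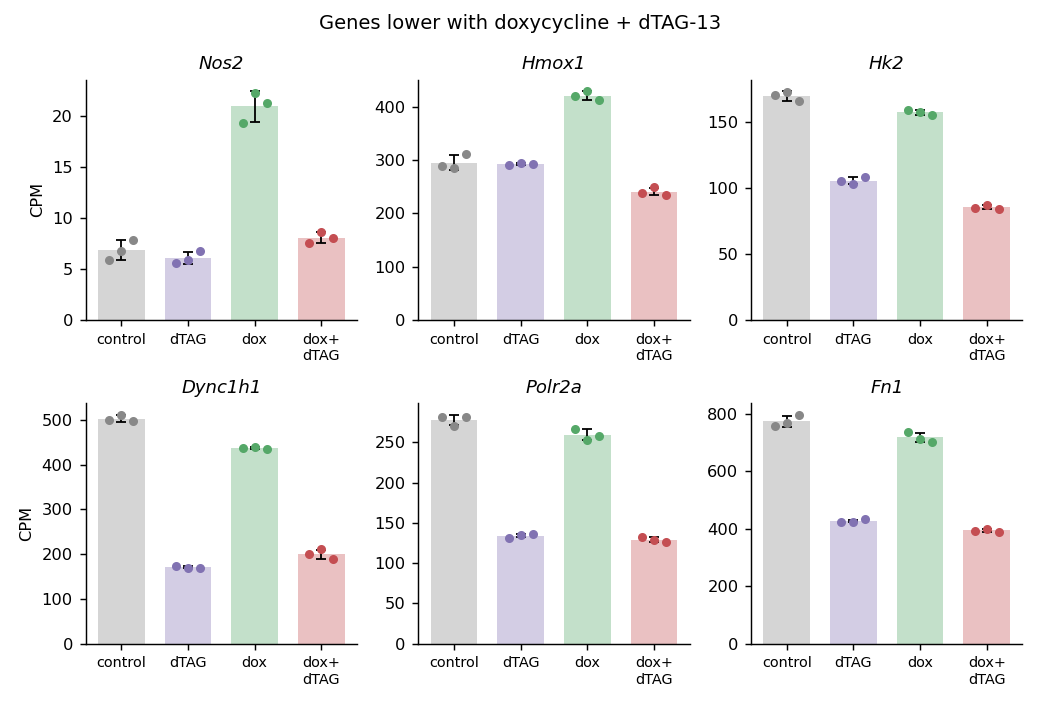
Bars show the mean CPM of 3 libraries per group with the SD, and points show single libraries, for Nos2, Hmox1, Hk2, Dync1h1, Polr2a and Fn1. For Nos2 and Hmox1 the doxycycline libraries stand above the other 3 groups (for Hmox1 at 413 to 429 CPM), while for Hk2, Dync1h1, Polr2a and Fn1 both groups with dTAG-13 stand below both groups without it.

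Genes of glycolysis and the hypoxia response were lower in 17 of 26 and higher in 4, where 33.4% and 30.7% of all genes tested were so called. Their median was -0.21 where genes of the same length eighths had 0.09, and 22 of the 26 lay below the median of their eighth. Hk2, a hexokinase that commits glucose to glycolysis, stood at 159, 157 and 155 CPM with doxycycline and at 84.7, 87.1 and 84.2 CPM with dTAG-13, so that its log2 fold change was -0.88 with SE 0.0293 and adjusted p = 2.96e-26. Hk1 was at -0.73. The interaction was negative for 18 of the 26 and positive for 0, where 9.64% and 13.2% of all genes tested were so called. Adm, the vasodilator peptide adrenomedullin, stood at 5.08, 4.83 and 5.21 CPM with doxycycline and at 4.15, 3.301 and 3.61 CPM with dTAG-13, a log2 fold change of -0.46. In cells without doxycycline it went from 3.802 ± 0.101 to 7.89 ± 1.31 CPM (SD, n = 3), and the interaction of -1.51 (SE 0.178, adjusted p = 2.31e-08) was the most negative by the rule for named genes. Ankrd37 was not called in the induced cells (0.07, adjusted p = 0.355; -0.25 and called lower after the length and GC correction) and rose without doxycycline from 12.5 ± 0.0331 to 27.1 ± 0.474 CPM, with an interaction of -1.04 (adjusted p = 2.30e-11). Ankrd37 overlaps Ufsp2. The peptide gene Apln, in no list, was lower at -0.83 and had an interaction of -0.95.

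The MHC class I genes that present the neoantigen were lower in 6 of 21 and higher in 9, with a median of 0.08 against 0.09 for their length eighths. Over all genes tested 33.4% were called lower and 30.7% higher. The immunoproteasome and its activator led the increases. Psme2, an activator subunit, stood at 22.01, 23.04 and 23.2 CPM with doxycycline and at 34.3, 36.9 and 32.9 CPM with dTAG-13, a log2 fold change of 0.61 (adjusted p = 4.34e-11). Psmb9 was at 0.41, Psmb8 at 0.34 and Psmb10 at 0.33. The class I heavy chains H2-K1 (0.03, adjusted p = 0.548) and H2-D1 (0.08, adjusted p = 0.0520) and the light chain B2m (-0.07, adjusted p = 0.170) were not called. All 3 were called once length and GC were corrected for, with H2-D1 higher at 0.09 and H2-K1 (-0.12) and B2m (-0.62) lower. The decreases were in the transactivator Nlrc5 (-0.28), the trimming enzyme Erap1 (-0.23), the chaperones Canx (-0.19) and Tapbp (-0.19) and the peptide transporter subunits Tap2 (-0.16) and Tap1 (-0.13), of which Nlrc5, Tap2 and Tap1 were not called after the correction.

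Interferon-gamma response genes were lower in 11 of 26 and higher in 8, where 33.4% and 30.7% of all genes tested were so called, with a median of -0.02 against -0.08. Stat3 (-0.53), the guanylate-binding protein Gbp5 (-0.47) and the kinase Jak1 (-0.43) had the largest decreases, and the receptor subunit Ifngr1 (0.24) and the chemokine Cxcl10 (0.23) the largest called increases, of which that of Cxcl10 was lost after the correction (-0.05, adjusted p = 0.213). The interaction was negative for 11 and positive for 3, where 9.64% and 13.2% of all genes tested were so called. Lysosome and autophagy genes were higher in 18 of 30 and lower in 6, with a median of 0.12 against 0.09. Ulk1, a kinase that starts autophagy, was lower at -0.66, and the lysosomal glucosidase Gaa was lower at -0.47. There the interaction was negative for 12 and positive for 0, and the members were higher in 21 of 30 without doxycycline.

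In both cell cycle lists more members were called lower than higher. The shares to set beside each list in this paragraph are 33.4% called lower and 30.7% higher over all genes tested. G2/M and mitosis genes were lower in 18 of 30 and higher in 3, with a median of -0.09 against -0.11 for their length eighths. Of the 30, 21 lay below the median of their own length eighth. After the length and GC correction 22 were called lower and 3 higher, with a median of -0.15. The proliferation marker Mki67 stood at 269.5, 260.5 and 259 CPM with doxycycline and at 141, 144 and 139.7 CPM with dTAG-13, a log2 fold change of -0.89 (adjusted p = 1.89e-26). The kinesin Cenpe was at -0.80. Without doxycycline 23 of the 30 were lower. The interaction was positive for 17 and negative for 1, where 13.2% and 9.64% of all genes tested were so called. DNA replication and G1/S genes were lower in 17 of 30 and higher in 11, with a median of -0.12 against -0.08, from -0.52 in the epigenetic regulator Uhrf1 to 0.53 in Gmnn, the replication licensing inhibitor geminin. p53 targets were higher in 12 of 21 and lower in 5, with a median of 0.16 against -0.08. After the length and GC correction 9 were called higher and 4 lower, with a median of 0.04. Among the p53 targets Btg2, an antiproliferative factor, was at 0.84, and Gdf15, at 1.62, had 2, 3 and 4 reads with doxycycline and 11, 6 and 8 with dTAG-13. Its call (adjusted p = 0.0259) was lost when doxycycline replicate 1, doxycycline replicate 2 or replicate 1 with both agents was left out, with adjusted p of 0.0972, 0.0602 and 0.139. Cdkn1a, which encodes the cell cycle inhibitor p21, was lower at -0.35. In cells without doxycycline Cdkn1a was called higher with dTAG-13 (0.21, adjusted p = 1.50e-06), and its interaction was -0.56 (adjusted p = 3.15e-11).

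Genes of the integrated stress response were higher in 9 of 22 and lower in 9, with a median of 0.01 against 0.09. Over all genes tested 30.7% were called higher and 33.4% lower, the shares to set beside each list in this paragraph. Atf3 (0.98) and Ppp1r15a (0.50), which encodes a phosphatase subunit that reverses eIF2alpha phosphorylation, had the largest increases, and the amino acid transporter Slc7a5 (-0.45) the largest decrease. Ppp1r15a stood at 246, 264 and 256 CPM with doxycycline and at 361, 372 and 354 CPM with dTAG-13, and its interaction was 0.68 (adjusted p = 1.37e-18). Chaperones of the endoplasmic reticulum and cytosol were higher in 10 of 26 and lower in 11, with a median of -0.03 against 0.00. Hspe1, a mitochondrial co-chaperone whose gene overlaps Hspd1, was at 0.64, and the co-chaperone Bag3 was at -0.55. Cholesterol and fatty acid synthesis genes were lower in 15 of 29 and higher in 7, with a median of -0.12 against -0.15. Fasn, fatty acid synthase, stood at 573, 580.4 and 565 CPM with doxycycline and at 302, 322 and 304 CPM with dTAG-13 (log2 fold change -0.89, SE 0.0246; adjusted p = 2.03e-28). Acaca, which supplies it with malonyl-CoA, was at -0.61. For Fasn the change without doxycycline was -1.31, and the interaction was 0.42 (adjusted p = 3.05e-12).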

How the data were processed

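Poly(A) RNA was sequenced from 12 libraries of MC38-idAdpgkG cells, 3 in each of 4 groups. The deposited values are raw read counts by Entrez gene ID in a single table, without normalization. Alignment was with Subread, per the file headers, and per the submitters' processing notes bcl2fastq 2.17, featureCounts and mm10 were used. The sources used here do not give the gene annotation, the strand setting or the handling of reads with several matches, so values of overlapping or near-identical genes are uncertain. Symbols came from the RefSeq annotation of GRCm38.p6 for 25275 of 27179 IDs and from GENCODE M21 for 17. The 1887 IDs without a symbol held 2.097% of reads.

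Counts were tested in R 4.3.3 with edgeR 4.0.16 (filterByExpr by group, TMM scaling, 1 mean per group over all 12 libraries, robust quasi-likelihood F test, two-sided). P-values were adjusted by Benjamini-Hochberg over all 12910 tested genes and called at 0.05. The standard error (SE) is the size of the log2 fold change over the square root of F. CPM are TMM-scaled. The interaction is the dTAG-13 difference with doxycycline minus that without it. Transcript lengths were means over GENCODE M21 transcripts. The length and GC correction removed splines with 5 degrees of freedom from each library as an offset and leaves the 1165 genes without a length as they are. The code was tested on simulated data. The main fit did not pair libraries by replicate number, and deviations of same-numbered libraries of the 2 compared groups correlated at -0.0121, 0.0250 and 0.000194. The share of the gene ID without a symbol was still highest in replicate 3 of every group. It was 0.795% in control, 0.966% with doxycycline, 1.83% with both agents and 1.22% with dTAG-13 alone. Alternatives included DESeq2 1.42.0, other scalings and filters, a replicate block, and 12 fits without 1 library each. Python 3.11.15 (pandas 2.3.3, numpy 2.4.6) was used for tables.

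Genes were named by a rule. It took Adpgk, Fkbp1a, Crbn, Nos2, Dync1h1 and Fasn, the 12 largest called increases and decreases among genes whose mean CPM reached 5 and whose groups did not overlap, the 6 largest departures each way from a running median by length, the 2 called members with the largest change in each of 25 lists, and the 4 largest interactions each way. One gene that the rule took is not reported here. Other list members were named after their values were seen. The comparison, the genes always named and the lists were chosen with earlier results of these data known.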

Additional observations from a re-analysis of the deposited data

Results flagged for a closer look

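For 2950 genes the difference with dTAG-13 differed between cells with and without doxycycline, by the interaction test in edgeR at an adjusted p under 0.05. Among the 77 named genes 41 were so called, and their interaction log2 fold changes follow, with positive values where dTAG-13 went with a more positive difference in the doxycycline cells.

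The most positive values among the named genes were 1.96 for Ccn1, 1.95 for Fos, 1.69 for Egr1, 1.21 for Dusp1 and 1.19 for Klf6, followed by 0.81 for mt-Nd6, 0.80 for mt-Nd5, 0.69 for Btg2, 0.69 for the NF-kappaB regulator Nfkbiz and 0.68 for Ppp1r15a. Smaller positive values were found for 9 genes that were lower with dTAG-13, at 0.42 for Dync1h1, 0.42 for Fasn, 0.38 for Ubr4, 0.34 for Zc3h13, 0.28 for Myh9, 0.23 for Acaca, 0.22 for Fat1, 0.20 for Mki67 and 0.14 for Cenpe. The longest eighth of transcripts as a whole had the interaction called negative for 263 genes and positive for 126, with a median of -0.06. The other positive values were 0.35 for Rbx1, 0.32 for Psma6, 0.31 for Hspe1, 0.30 for Psma3, 0.30 for Mrps16, 0.23 for Psme2, 0.22 for Mrpl33, 0.20 for Gmnn and 0.12 for Fkbp1a.

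The most negative values were -1.51 for Adm, -1.21 for Nos2, -1.14 for the selenium-binding protein gene Selenbp1, -1.04 for Ankrd37, -0.95 for Apln, -0.93 for Gstm1, -0.79 for Hmox1 and -0.49 for Gbp5. Smaller negative values were found for Gaa (-0.28), Hk1 (-0.27), Stat3 (-0.20), Hk2 (-0.19) and Adpgk (-0.14).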

How the results depend on the processing

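The number of called genes stayed within 1.5 times of 8273 under all 10 alternatives beside single libraries, from 6560 to 8299, and ran from 7734 to 8341 without single libraries. The replicate block gave 8205 called genes, 187 past 2-fold and 2810 in the interaction, and it changed no call of a named gene when used alone. The count past 2-fold fell from 188 to 83 with a filter of 1 CPM in 3 libraries and ran from 187 to 224 without single libraries, where the interaction count ran from 2374 to 3042. The length gap of -0.739 was -0.607 with no filter, -0.596 by genomic span, and -0.760 to -0.718 without single libraries. Signs turned for 3 genes and several list medians, which included 0.59 for mt-Nd6, 0.47 for the mitochondrially encoded median and 0.37 for the histone median as reported. Under the length and GC correction, that correction with the replicate block, and the length correction, Ankrd37 was -0.254, -0.255 and -0.251, Fkbp1a was -0.132, -0.132 and -0.132, and the chaperone median was 0.00247, 0.00291 and 0.00570. Under the first and the second of these, mt-Nd6 was -0.260 and -0.262, the median of mitochondrially encoded genes was -0.148 and -0.148, and that of degrader genes was -0.0126 and -0.0130. Under the length correction the medians of the MHC class I, integrated stress response and histone lists were -0.0119, -0.0244 and -0.0559, and the histone median was -0.00520 under length and GC with the replicate block. Without single libraries Ankrd37 ran from -0.00279 to 0.129, Fkbp1a from -0.0189 to 0.0276, the degrader median from -0.00394 to 0.0272 and the stress response median from -0.0183 to 0.0143. Of all values for named genes under the alternatives, 1657 kept direction and side of the threshold, 14 lost the call, 4 gained it with the same sign (all for Adpgk, up to 0.06) and 15 changed sign. Of these 15, 6 were called with the new sign though not called as reported, 3 for Fkbp1a and 3 for Ankrd37 under the corrections, and 1 turned from called to called (mt-Nd6 under length and GC). The cause of these changes was not tested. Technical replicates of 1 culture per group limit every comparison, and genes with few reads (Gdf15, H1f5, H2bc6, Fos) are the least precise.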
